A study of Glycine max with 4 samples.

Results

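Glyma.15G105900 and Glyma.13G206700, both described as glucose-6-phosphate/phosphate translocator 2 in the soybean annotation, were followed in leaf RNA after 24 h without phosphate (Pi). They are 2 of the 39505 loci listed. The members had been chosen by their measured difference between Pi-deprived and Pi-sufficient leaves in these same libraries, so that difference is described below without a test. A further 11 loci carry a description of a glucose-6-phosphate/phosphate translocator and serve as context, together with 1 locus described as a phosphoenolpyruvate/phosphate translocator. Leaf RNA came from Williams 82 soybean seedlings (18 days in hydroponics) moved for 24 h to 0 mM KH2PO4 (Pi-deprived leaves, PDL-1 and PDL-2) or to 0.5 mM KH2PO4 (Pi-sufficient leaves, PSL-1 and PSL-2). In the PDL solution K2SO4 stood in for KH2PO4, so that the groups differed in sulfate as well as in Pi. Each library pooled the first trifoliate leaves of 3 plants, which gives n = 2 in each group. As whole leaves were used, more cells of a type and more RNA per cell cannot be told apart.

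Plastid phosphate translocators are antiporters of the inner envelope membrane that swap a phosphorylated sugar or acid for Pi. Those for glucose 6-phosphate bring it into plastids, where it feeds starch synthesis and the oxidative pentose phosphate pathway, and return Pi to the cytosol. They are best known from heterotrophic tissue such as roots and seeds. In Arabidopsis, the gene for the second isoform is low in green leaves and is induced by sugars and by a shift to stronger light, whereas mature leaves mainly export triose phosphates through a separate translocator.

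Abundances are FPKM, in which fragment counts are scaled to transcript length and library size, so that levels can be compared between loci. Glyma.15G105900 occupies positions 8301875 to 8304619 of chromosome 15 (assembly Gmax2.0), a locus of 2745 bases with 2 annotated transcript models. It had 1.27 and 1.81 FPKM in PDL-1 and PDL-2 and 0.631 and 0.320 FPKM in PSL-1 and PSL-2. Both PDL libraries were thus above both PSL libraries, and the gene stayed below 2 FPKM everywhere. The group means were 1.54 ± 0.379 FPKM in PDL and 0.475 ± 0.220 FPKM in PSL (SD, n = 2 each), a ratio of 3.24. The 4 possible ratios of a PDL to a PSL library ran from 2.02 to 5.64, while the replicates of a group differed by 1.42-fold in PDL and 1.97-fold in PSL.

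Glyma.13G206700 occupies positions 32050776 to 32053332 of chromosome 13, a locus of 2557 bases with 1 transcript model. It had 7.99 and 4.54 FPKM in PDL-1 and PDL-2 and 2.22 and 3.31 FPKM in PSL-1 and PSL-2. Here too the groups did not overlap, but PDL-2 was close to PSL-2. The group means were 6.26 ± 2.44 FPKM in PDL and 2.76 ± 0.774 FPKM in PSL (SD, n = 2 each), a ratio of 2.27. The single PDL to PSL ratios ran from 1.37 to 3.60, while replicates differed by 1.76-fold in PDL and 1.49-fold in PSL. The libraries that were high for one gene were not the high ones for the other, as PDL-2 and PSL-1 held the higher replicate value of Glyma.15G105900 and PDL-1 and PSL-2 that of Glyma.13G206700.

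**Figure D1:**
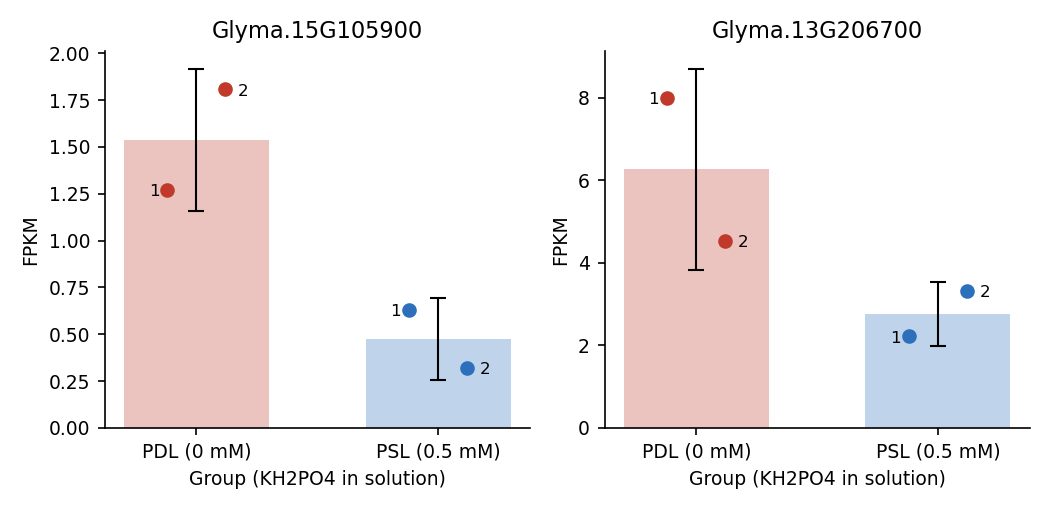
FPKM of Glyma.15G105900 (left) and Glyma.13G206700 (right) in Pi-deprived (PDL) and Pi-sufficient (PSL) leaves, with 1 point per library numbered by replicate, bars for group means and error bars for the SD of 2 libraries. Points of the groups do not overlap for either gene, with 1.27 and 1.81 against 0.631 and 0.320 FPKM on the left and 7.99 and 4.54 against 2.22 and 3.31 FPKM on the right.

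On the log2(FPKM + 0.1) scale, the difference between PDL and PSL was 1.55 for Glyma.15G105900 (standard error 0.46) and 1.12 for Glyma.13G206700 (standard error 0.36). Both lay above the study's fold threshold of 1 on this scale. In both of the 2 members the PDL libraries were above the PSL libraries, which held for 20.2% of all loci tested. A larger log2 fold change was found at 2.33% of the loci tested for Glyma.15G105900 and at 3.59% for Glyma.13G206700, values that restate how these genes were chosen. Without PDL-1 the log2 fold change of Glyma.13G206700 was 0.72 and without PSL-1 it was 0.84, both under the fold threshold, and a pseudocount of 1 in place of 0.1 gave 0.78 for the low Glyma.15G105900.

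Glyma.13G206700 was the more abundant of the pair in every library. Its FPKM exceeded that of Glyma.15G105900 by 6.28-fold in PDL-1, 2.51-fold in PDL-2, 3.51-fold in PSL-1 and 10.3-fold in PSL-2. The mean log2 difference in level was 2.13 ± 0.80 (SD, n = 4 libraries; exact two-sided sign-flip permutation test, p = 0.125), and 0.125 is the smallest p that 4 libraries allow in this test. The ratio varied within both groups by more than it did between them.

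The members sat in a family with a wide span of levels. Among the 14 plastid phosphate translocator loci, Glyma.13G206700 had rank 10 and Glyma.15G105900 rank 14 by the mean over the 4 libraries. At the top, Glyma.07G201300 and Glyma.13G175100, both described only as related to glucose-6-phosphate/phosphate translocators, ranged from 854 to 950 FPKM over the PDL libraries and from 743 to 884 FPKM over the PSL libraries. In Arabidopsis the same description is carried by the triose phosphate translocator of chloroplasts, so the words do not name the substrate. Glyma.19G005900, described as a phosphoenolpyruvate/phosphate translocator, was next with 123 ± 5.93 FPKM in PDL and 103 ± 4.16 FPKM in PSL. The range of Glyma.13G206700 over the libraries overlapped those of its neighbours in this order, Glyma.18G102700 above it (6.63 to 8.42 FPKM) and Glyma.14G025800 below it (1.79 to 2.93 FPKM), both described as translocator 1. Glyma.15G105900 overlapped its neighbour Glyma.02G289000 (1.06 to 1.33 FPKM). None of the 14 loci was listed at 0 in any library.

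**Figure D2:**
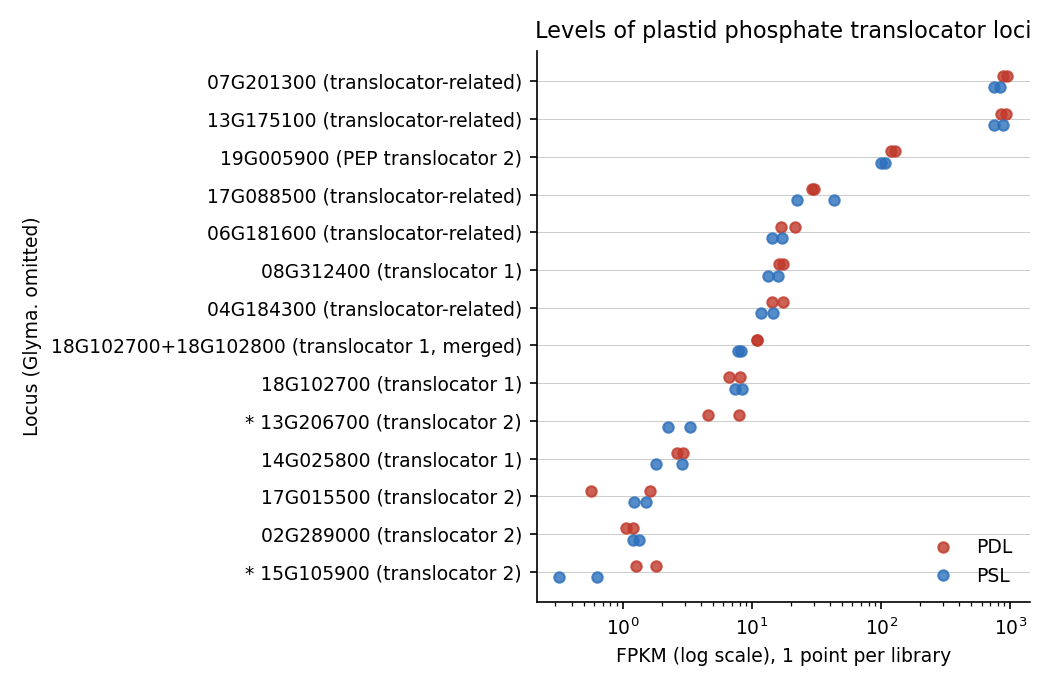
FPKM (log axis) of the 14 plastid phosphate translocator loci, ordered by mean level from top to bottom, with 1 point per library in PDL or PSL. Asterisks mark the members, at ranks 10 and 14, far below the loci at 743 to 950 FPKM at the top.

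The order of group means within the 4 loci described as translocator 2 differed between the groups below Glyma.13G206700. Glyma.15G105900 moved, and Glyma.02G289000 and Glyma.17G015500, whose libraries overlapped in both groups, also changed places. In PDL, Glyma.13G206700 was followed by Glyma.15G105900, then by Glyma.02G289000 at 1.13 ± 0.0961 FPKM and Glyma.17G015500 at 1.09 ± 0.741 FPKM (SD, n = 2). In PSL, Glyma.13G206700 was followed by Glyma.17G015500 at 1.37 ± 0.204 FPKM, Glyma.02G289000 at 1.27 ± 0.0889 FPKM and, last, Glyma.15G105900. In PDL the libraries of Glyma.15G105900 overlapped those of Glyma.17G015500 (1.61 and 0.562 FPKM) but not those of Glyma.02G289000 (1.06 and 1.20 FPKM). In PSL they overlapped neither. The members together made up 77.6% and 78.3% of the summed FPKM of these 4 loci in PDL and 53.9% and 56.1% in PSL. Their share of all 8 loci described as translocator 1 or 2 came to 18.7% and 13.7% in PDL, against 7.75% and 8.91% in PSL. That set lists Glyma.18G102700 both alone and in a locus merged with an adjacent gene. Without the merged locus the share was 24.0% and 18.0% in PDL, against 9.85% and 11.15% in PSL. These differences rest on the contrast the members were chosen on.

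The loci of the same description that the choice had left out were tested with limma over all 32686 loci with a mean of at least 0.3 FPKM. A locus was called where the size of its log2 fold change reached 1 and its unadjusted p was 0.05 or less, which are the study's thresholds, and 2.03% of all loci were called. Because the members were taken out of this description by the same contrast, a low count among the loci left behind was favoured in advance. Of the 11 other loci, 0 were called and 1 reached an unadjusted p of 0.05 or less in limma, as did 8.93% of all loci tested. Their log2 fold changes ran from −0.46 to 0.45 with a median of 0.20, where the median of all loci tested was −0.01. The locus at the upper end merges Glyma.18G102700 with the adjacent tryptophan synthase gene Glyma.18G102800, and had 10.9 and 11.0 FPKM in PDL and 7.84 and 8.20 FPKM in PSL (log2 fold change 0.45, standard error 0.12, limma adjusted p = 0.517). The separate entry for Glyma.18G102700 at the same coordinates had 6.63 and 8.02 FPKM in PDL and 7.42 and 8.42 FPKM in PSL, with a log2 fold change of −0.11. So the change of that translocator 1 gene depended on which of its entries was read.

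Neither of the other translocator 2 genes, left out by a choice made on this contrast, resembled the members in it. Glyma.17G015500 had 1.61 and 0.562 FPKM in PDL and 1.23 and 1.51 FPKM in PSL, and the PDL libraries lay on both sides of the PSL ones (log2 fold change −0.46, standard error 0.55, limma adjusted p = 0.809). Without PDL-1 this locus was called lower, with a log2 fold change of −1.14, in a fit where PDL-2 alone stood for PDL and was assumed to vary like the PSL libraries. Glyma.02G289000 had 1.06 and 1.20 FPKM in PDL and 1.20 and 1.33 FPKM in PSL (log2 fold change −0.15, standard error 0.27, limma adjusted p = 0.877). The translocator 1 gene Glyma.08G312400 had 17.4 and 16.2 FPKM in PDL and 13.4 and 15.9 FPKM in PSL (log2 fold change 0.20, standard error 0.14, limma adjusted p = 0.711). Glyma.14G025800 had 2.64 and 2.93 FPKM in PDL and 2.84 and 1.79 FPKM in PSL (log2 fold change 0.29, standard error 0.28, limma adjusted p = 0.767). The 5 loci described as translocator-related had log2 fold changes between −0.06 and 0.28, and that of the phosphoenolpyruvate translocator Glyma.19G005900 was 0.25 (standard error 0.10, limma adjusted p = 0.579). Whether the members differed from these loci in their change was not tested, since the members had been selected on it.

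**Figure D3:**
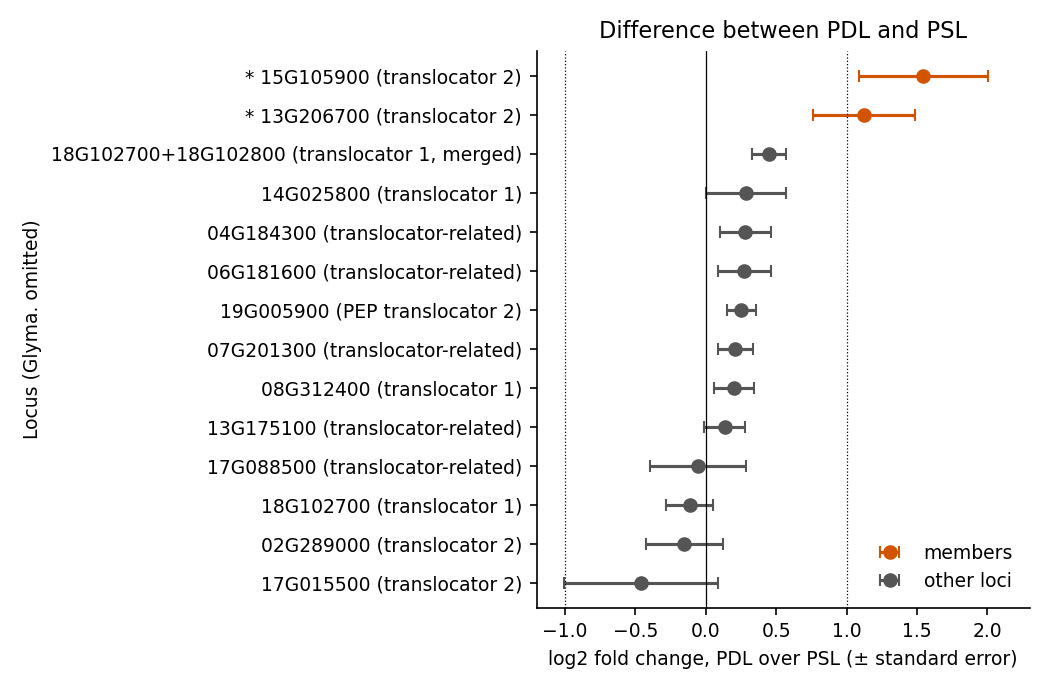
Log2 fold change of PDL over PSL on the log2(FPKM + 0.1) scale for the 14 plastid phosphate translocator loci, with standard errors from limma, and dotted lines at −1 and 1. The members, selected on this contrast, are at 1.55 and 1.12, and the other loci run from −0.46 to 0.45.

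The members lie in matching surroundings on the different chromosomes. Within 40 kb, 5 of the 6 gene descriptions next to Glyma.15G105900 were also found next to Glyma.13G206700, where they again made up 5 of 6. They appeared in mirrored order along the chromosomes. Next to Glyma.15G105900 came an NAD(P)-binding Rossmann-fold protein, peroxiredoxin IIF (a mitochondrial thiol peroxidase in Arabidopsis), the ubiquitin ligase RING-H2 group F1A, the member itself, a pseudouridine synthase and an adenosine/AMP deaminase, and around Glyma.13G206700 the same descriptions ran in the reverse direction. Glyma.17G015500 shared 1 description with Glyma.15G105900 and 2 with Glyma.13G206700 out of its 10, and Glyma.02G289000 shared 0 of its 8 with either.

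These flanking genes were read in the same fit, and those named were chosen after their values were seen. Of the 15 loci within 40 kb of a member, 12 were tested, 0 were called and 2 had an unadjusted p of 0.05 or less in limma (8.93% of all loci), with log2 fold changes from −0.45 to 0.42. The nearest one listed beside Glyma.13G206700, the pseudouridine synthase gene Glyma.13G206600, had 6.94 and 5.23 FPKM in PDL and 5.71 and 4.91 FPKM in PSL (log2 fold change 0.18, standard error 0.20, limma adjusted p = 0.794). The RING-H2 gene Glyma.13G206800 on the other side had 6.16 and 5.58 FPKM in PDL and 7.51 and 8.61 FPKM in PSL (log2 fold change −0.45, standard error 0.15, limma adjusted p = 0.545). Its counterpart Glyma.15G105800 had 10.4 and 9.05 FPKM in PDL and 12.2 and 11.6 FPKM in PSL (log2 fold change −0.29, standard error 0.14, limma adjusted p = 0.616). The adenosine/AMP deaminase gene Glyma.13G206500 had 23.6 and 26.9 FPKM in PDL and 19.5 and 18.2 FPKM in PSL (log2 fold change 0.42, standard error 0.13, limma adjusted p = 0.527), and the Rossmann-fold gene Glyma.13G207200 had 16.1 and 16.5 FPKM in PDL and 13.5 and 13.4 FPKM in PSL (log2 fold change 0.27, limma adjusted p = 0.576). Of the 12 tested neighbours, 2 thus had both PDL libraries above both PSL libraries, where 20.2% of all loci tested did. In 3 they were below, the RING-H2 genes among them, and the share of all loci below was not counted. Beside Glyma.15G105900, the beta-glucosidase 47 gene Glyma.15G106000 was listed at 0.0857 and 0 FPKM in PDL and at 0 in both PSL libraries.

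**Figure D4:**
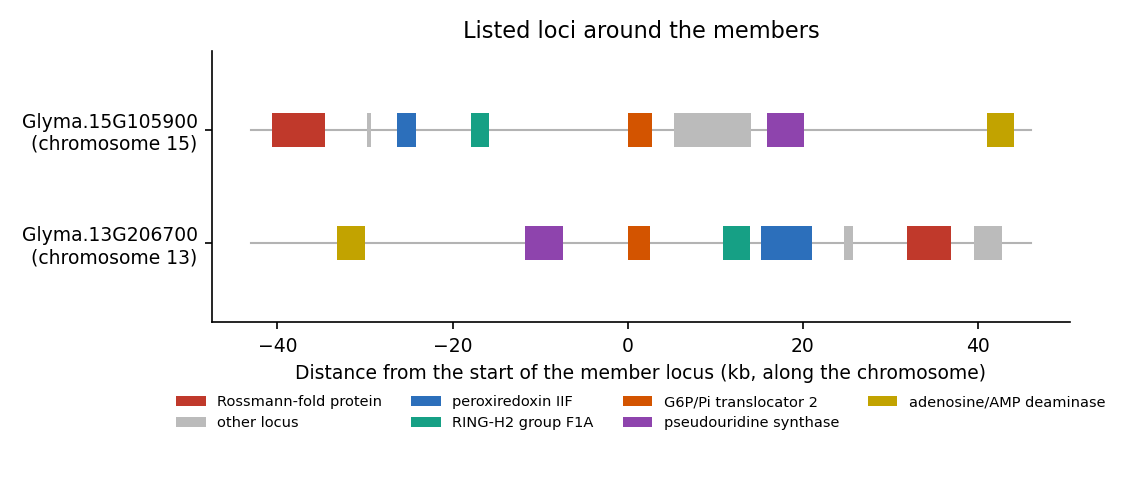
Loci listed within 40 kb of Glyma.15G105900 (top) and Glyma.13G206700 (bottom), drawn to scale by distance in kb from the start of the member along its chromosome and coloured by description. The 5 shared descriptions run in opposite order on the chromosomes, and the peroxiredoxin IIF box at the bottom covers 2 entries with the same coordinates.

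Genes that make or use glucose 6-phosphate, or that move Pi into plastids, were counted in 6 lists drawn from the words of the descriptions. Together they held 159 loci, of which 141 were tested and 0 were called, against 2.03% of all loci. In limma, 14 of the 141 had an unadjusted p of 0.05 or less, a share near the 8.93% of all loci, and 13 of these 14 had a positive log2 fold change, while the smallest adjusted p was 0.333. The median log2 fold change was 0.17 and 78.0% of these loci had a positive one, where 48.6% of all loci tested did. By mean level, that share of all loci was 50.7% below 1 FPKM, 46.6% from 1 to 10 and 48.0% from 10 to 100. At 100 FPKM or more it was 63.8%. A shift like that of the pathway loci was seen in the leaf photosynthesis list (light-harvesting proteins and the Rubisco small subunit). There, 46 of 47 tested loci had a positive value, with a median of 0.31. Of them 0 were called, and 8 had an unadjusted p of 0.05 or less in limma.

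The oxidative pentose phosphate enzymes draw on glucose 6-phosphate inside and outside plastids. Of 24 tested loci 0 were called and 4 had an unadjusted p of 0.05 or less in limma (8.93% of all loci did), with a median log2 fold change of 0.26. The 2 genes for glucose-6-phosphate dehydrogenase 2, a plastid isoform in Arabidopsis that takes the first step of the pathway, missed the fold threshold by little (chosen after their values were seen). Glyma.02G096800 had 36.8 and 39.0 FPKM in PDL and 20.1 and 18.8 FPKM in PSL (log2 fold change 0.96, standard error 0.11, limma adjusted p = 0.333), and Glyma.18G284600 had 35.1 and 33.5 FPKM in PDL and 18.4 and 17.0 FPKM in PSL (log2 fold change 0.95, standard error 0.11, limma adjusted p = 0.334). Without PSL-1 both were called at log2 fold changes of 1.01, and Glyma.02G096800 also without PDL-1, but such fits leave 1 library in an arm and called 1066 to 1407 loci in all, against 663 with every library. Their replicates were much closer to each other than those of the members. The isoform 6 genes, cytosolic in Arabidopsis and likewise chosen after their values were seen, gave values on both sides of 0, with log2 fold changes of −0.47 for Glyma.16G063200, −0.38 for Glyma.19G082300 and 0.13 for Glyma.19G077300. Of the most abundant loci, Glyma.05G214000, a 6-phosphogluconate dehydrogenase family gene (a description that also covers relatives of the enzyme), had 114 and 93.9 FPKM in PDL and 67.5 and 66.7 FPKM in PSL (log2 fold change 0.63, standard error 0.14, limma adjusted p = 0.481). Glyma.01G062000, for 6-phosphogluconolactonase 1, had 87.0 and 102 FPKM in PDL and 70.8 and 98.8 FPKM in PSL (log2 fold change 0.17, standard error 0.20, limma adjusted p = 0.813).

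Starch synthesis, the other fate of imported glucose 6-phosphate, counted 0 called loci among 35 tested, 5 at an unadjusted p of 0.05 or less in limma (8.93% of all loci) and a median log2 fold change of 0.20. Its most abundant loci encode subunits of ADP-glucose pyrophosphorylase, which makes the glucosyl donor of starch and is activated by 3-phosphoglycerate and inhibited by Pi. Glyma.07G258500 (large subunit) had 146 and 149 FPKM in PDL and 126 and 130 FPKM in PSL, and Glyma.02G304500 (described as ADP glucose pyrophosphorylase 1, the small subunit in Arabidopsis) had 109 and 111 FPKM in PDL and 92.6 and 93.2 FPKM in PSL. Their log2 fold changes were 0.20 and 0.24 (limma adjusted p = 0.618 and 0.569). In the list of starch breakdown and plastid sugar export, 0 of 41 were called, 1 had an unadjusted p of 0.05 or less and the median was 0.14. The chloroplast beta-amylase genes Glyma.17G150100 and Glyma.05G068000 led it with 339 and 305 FPKM, and 115 and 116 FPKM, in PDL, and with 273 and 285 FPKM, and 93.2 and 106 FPKM, in PSL (limma adjusted p = 0.654 and 0.650).

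Enzymes that interconvert glucose 6-phosphate (hexokinases, phosphoglucomutases, phosphoglucose isomerases) counted 0 called among 20, with 3 at an unadjusted p of 0.05 or less. Glyma.08G044100, a phosphoglucomutase family gene, had 55.3 and 53.8 FPKM in PDL and 47.6 and 48.5 FPKM in PSL (log2 fold change 0.18, standard error 0.10, limma adjusted p = 0.649). Glyma.02G212600, for phosphoglucose isomerase 1, had 55.0 and 58.7 FPKM in PDL and 45.8 and 43.6 FPKM in PSL (log2 fold change 0.34, standard error 0.10, limma adjusted p = 0.527). The hexokinase-like gene Glyma.11G095600, chosen after its values were seen, was at the fold threshold with 2.15 and 1.60 FPKM in PDL and 0.816 and 0.954 FPKM in PSL (log2 fold change 0.99, standard error 0.29, limma adjusted p = 0.527), and it was called at a pseudocount of 0.01. Plastid Pi transporters of the PHT2 and PHT4 families counted 0 called among 11, with 0 at an unadjusted p of 0.05 or less in limma. The PHT2;1 gene Glyma.18G144100 had 95.3 and 103 FPKM in PDL and 92.1 and 110 FPKM in PSL (log2 fold change −0.02, standard error 0.13), and the PHT4;5 gene Glyma.17G108300 had 52.9 and 62.0 FPKM in PDL and 52.4 and 54.0 FPKM in PSL (log2 fold change 0.11, standard error 0.12). Cytosolic sucrose synthesis counted 0 called among 13, with 1 at an unadjusted p of 0.05 or less and a median of 0.15. Its most abundant locus, the sucrose phosphate synthase gene Glyma.14G029100, had 67.4 and 79.8 FPKM in PDL and 65.8 and 62.2 FPKM in PSL (log2 fold change 0.20, standard error 0.13), followed by a merged locus that includes the UDP-glucose pyrophosphorylase 2 gene Glyma.14G210700 (log2 fold change 0.37, standard error 0.14).

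**Figure D5:**
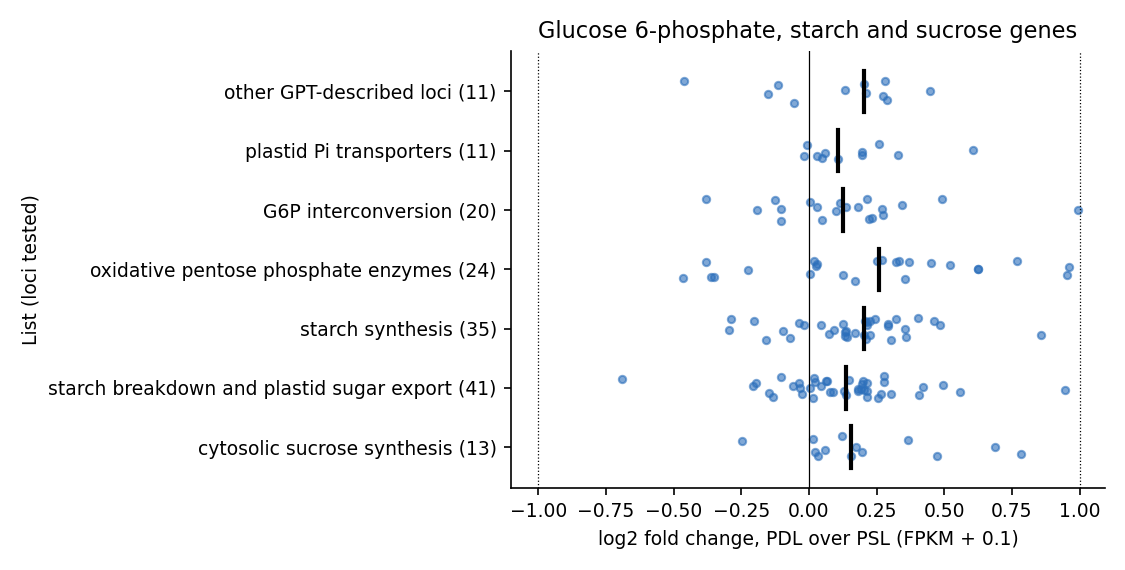
Log2 fold change of PDL over PSL (log2(FPKM + 0.1) scale) for each tested locus of 7 lists, with the number of loci tested in brackets and a black bar at each median. No point lies beyond the dotted lines at −1 and 1, and all 7 medians are above 0, from 0.11 to 0.26.

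The genes whose profile over the 4 libraries was nearest to each member were looked up as a description, by the root mean square difference of log2(FPKM + 0.1) profiles centred on their own means, among 23008 single described loci with a mean of at least 1 FPKM. Nearest to Glyma.15G105900 were a pectin lyase-like gene (Glyma.18G116400, distance 0.070), the expansin A4 gene Glyma.12G062700 (distance 0.083), whose product loosens cell walls, and Glyma.16G168200, for a vacuolar iron transporter family protein (distance 0.11). The expansin gene had 19.3 and 28.4 FPKM in PDL and 10.6 and 5.31 FPKM in PSL. It shared the order of libraries with the translocator, which follows from its being picked for a small distance. The profiles also contain the contrast the members were chosen on. Nearest to Glyma.13G206700 were an RNA-binding protein gene (Glyma.09G232800, distance 0.092), Glyma.08G334500, described as maternal effect embryo arrest 59 (distance 0.10), and Glyma.14G087600, for acyl-CoA-binding domain 3 (distance 0.11). The members were 0.69 apart. By distance among the 23008 loci, Glyma.13G206700 had rank 2489 from Glyma.15G105900, and Glyma.15G105900 had rank 11715 from Glyma.13G206700. Within 0.3 lay 72 loci for Glyma.15G105900 and 124 for Glyma.13G206700. With 4 points per profile, closeness of this kind is shared by many loci.

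Several features of the whole libraries stand beside these values. Between 35517 and 36536 loci were above 0 FPKM in a library, and median levels of the tested loci ran from 6.07 to 6.11 FPKM. Summed FPKM of all loci were less even, with 1939160 and 1833250 in PDL-1 and PDL-2 and 1661720 and 2007430 in PSL-1 and PSL-2. Of 12 tested SPX domain genes, markers of Pi deprivation, 3 were called higher in PDL, where 1.14% of all loci were. The leaf photosynthesis list summed to 160200 and 161780 FPKM in PDL and 124570 and 136480 FPKM in PSL. Among lists of other cell types, the guard cell and stomata list summed to 59.3 and 65.4 FPKM in PDL and 48.0 and 50.2 FPKM in PSL, and 2 of its 7 tested loci were called higher. Both encode stomagen, a peptide that in Arabidopsis is made by mesophyll and promotes stomata. Without them the list summed to 49.7 and 52.4 FPKM in PDL and 43.6 and 46.6 FPKM in PSL, with 0 of 5 called (0 at an unadjusted p of 0.05 or less in limma). Of the xylem and secondary wall loci, 1 of 28 was called higher (sums 125 and 83.6 FPKM in PDL, 77.5 and 103 FPKM in PSL). Log2 fold changes in that list ran from −1.61 to 1.83, and 16 of 28 were positive (48.6% of all loci tested were). The xylem cysteine peptidase 2 genes Glyma.04G014700, Glyma.04G014800, Glyma.06G014700 and Glyma.06G014800, chosen after their values were seen, had log2 fold changes of 1.20, 0.93, 0.85 and 0.52. In the root list 1 of 11 was called lower (sums 407 and 362 FPKM in PDL, 413 and 341 FPKM in PSL). That locus merges a root hair specific 16 gene, Glyma.08G198000, with a leucine-rich repeat kinase gene. Another root hair specific 16 gene, Glyma.07G127100, was not called (log2 fold change −0.14). In the epidermis and cuticle list 0 of 26 and in that of dividing cells 0 of 49 were called, with 0 and 1 at an unadjusted p of 0.05 or less in limma. Root hair genes differed widely in level (those named were chosen after their values were seen). Glyma.06G314100 was at 0.0387 and 0 FPKM in PDL and at 0 in PSL. Glyma.05G103600 had 325 and 273 FPKM in PDL and 311 and 253 FPKM in PSL. The stomagen gene Glyma.18G152800 was at 0 in both PSL libraries. The part of these differences in the values of the members was not tested.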

How the data were processed

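Leaf poly(A) RNA was sequenced as paired ends in 4 libraries, grouped by their GEO titles. Per the methods, the authors cleaned reads using FastQC and the FASTX-toolkit, aligned them to Gmax2.0 by TopHat on a Bowtie2 index, and obtained FPKM per locus and library with Cufflinks and Cuffdiff (versions not given in the sources used here), and the deposited FPKM were used as they stand. Several alignments per read were allowed, so reads of near-identical paralogs may be split between them, and paralog values are uncertain to that extent. The study's table of reads gives 28941039 to 36741937 mapped reads a library, and FPKM carry no counting error of their own. The authors' deposited columns of pooled FPKM and of their own comparison (fold change, test statistic, p-values) were not used.

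A fit of log2(FPKM + 0.1) was made by limma 3.58.1 (R 4.3.3, mean-variance trend, PDL minus PSL) for loci that averaged 0.3 FPKM or more, with Benjamini-Hochberg adjustment. Fold changes on this scale understate changes of low loci. The limma p-values and standard errors rest on the spread between 2 libraries a group, drawn towards the spread of loci of like level. A permutation of 2 against 2 libraries cannot go below 0.333. Summaries and plots were made by pandas 2.3.3, numpy 2.4.6 and matplotlib 3.10.9 under Python 3.11.15. The script was tested on simulated data with known changes.

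Members and lists were chosen with earlier results of these data known. Lists were word patterns on descriptions. Of the pattern for other translocators, 6 triosephosphate isomerase loci were dropped, and SWEET (nodulin MtN3) loci from that for roots, once the matched descriptions were seen. Isoamylase loci count in both starch lists and once in the total. Named were the members, all 12 other translocator loci, the 2 most abundant loci of each pathway list with any called, and the 3 nearest profiles per member. Flanking genes, glucose-6-phosphate dehydrogenase genes, the hexokinase-like gene and single cell type markers were named outside this rule, after their values were seen.

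The alternatives were pseudocounts of 1 and 0.01, a filter at 1 FPKM or none, quantile normalization, median centring, no trend, a replicate block, single annotated loci only and leaving out each library. Libraries with the same number did not deviate together (r = −0.08 over 32686 loci), so the numbers were not used to pair them.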

Additional observations from a re-analysis of the deposited data

How the results depend on the processing

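Both members kept a positive log2 fold change in all 13 alternatives. Leaving out 1 library gave 1.15 to 1.95 for Glyma.15G105900 and 0.72 to 1.53 for Glyma.13G206700, and a pseudocount of 1 gave 0.78 and 0.92. The difference in level between the members stayed between 1.41 and 2.27 on the log2 scale and between 1.84 and 2.42 without a library, where the smallest exact permutation p is 0.25. The number of loci called was 663 in the fit used here, 365 with a pseudocount of 1, 1041 with no filter and 1066 to 1407 without a library (the lone library of a group is then assumed to vary like the other group), and the replicate block gave 662. The replicate block, given only for completeness since nothing shows that the numbers pair the libraries, left the counts of 0 for the other translocators and the pathway loci as they were. Of the other loci described as glucose-6-phosphate/phosphate translocators, 0 to 1 were called without a library (Glyma.17G015500 without PDL-1), and the count was 0 in the remaining alternatives. Of the pathway loci, 1 was called with a pseudocount of 0.01 and 1 with quantile normalization (Glyma.11G095600 each time), and 1 to 5 were called without a library (2 without PDL-1, 3 without PDL-2, 5 without PSL-1 and 1 without PSL-2), among them both glucose-6-phosphate dehydrogenase 2 genes without PSL-1. The phosphoenolpyruvate translocator was not called in any of them. With no filter, low loci add calls by construction, and the cause of the other shifts was not tested. With 2 libraries a group, the low FPKM of Glyma.15G105900 and no read counts, the precision of single fold changes is limited.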
